A study of Columba livia with 10 samples.

Results

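Translation initiation and elongation factors carry ribosomes onto a messenger RNA, to its start codon and along its reading frame. They were followed here as the 54 genes whose names start with EIF or EEF and a digit, without the EIF2 kinases, out of 22547 genes in the count tables. The rule reads gene names alone, and it was set with earlier results of these data known. Cerebellum of 10 racing homers, domestic pigeons of 1 loft kept under the widowhood method, was sequenced as total RNA. The race group was 5 birds killed on returning from a competition flight of 300 km, and the control group was 5 birds of the same age that rested in the loft that day. No strain, sex, allele or drug separates the groups in the labels, and birds of both groups were sedated before they were killed. Of the 54 genes, 53 had enough reads to be tested, and EIF4E1B, with at most 4 reads in any library, was not.

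In the first step of translation EIF1, EIF1A, EIF3 and EIF5 hold the small ribosomal subunit ready, EIF2 brings the initiator transfer RNA, and EIF2B recharges EIF2 with GTP. The EIF4 group binds the cap and unwinds the leader of the messenger RNA, EIF5B joins the large subunit, and EEF1 and EEF2 then add amino acids and move the ribosome. Phosphorylation of EIF2, EEF2 and the EIF4E-binding proteins sets the rate in neurons and other cells, and the abundance of a messenger RNA does not show it. The tables give gene names and reads and no sequence, so no sequence is shown.

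The libraries held 17953704 to 21227493 gene counts in race birds and 18048137 to 23344086 in control birds, with the 54 genes taking 1.04% to 1.24% of them in race birds and 1.13% to 1.31% in control birds. Values below are reads of a gene scaled to library size with TMM factors, as CPM. Control 1 stood apart, with a median Spearman correlation over genes of 0.879 to the other libraries against 0.947 to 0.977 for the rest. Control 3, control 4 and control 5 had 93 to 95 protein-coding genes of the female-specific W chromosome at 1 CPM or more, against 24 to 33 in the race libraries and 27 and 28 in control 2 and control 1. No race library reached that level, so race against control is in part a comparison of libraries without and with W-linked expression. The part of sex in the differences was not tested. None of the 54 genes lies on Z or W in the RefSeq annotation. For 9 of the 10 samples the number in the name of the count table is not the one in the sample's title, and 6 tables would change group by title. Groups follow the sample record that holds each table.

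With groups taken from the sample records, the factors as a set stood slightly lower in race cerebellum, and no single one passed. The median log2 fold change, race minus control, was -0.18 over the 53 factors and -0.03 over all 14172 genes tested. It was negative for 43 of the 53, or 81.1%, against 52.6% of all genes. With the tables assigned by sample title this direction was lost, with a median of 0.03 and 25 of 53 negative. Leaving out control 1 moved the log2 fold change of 37 of the 53 by over 1.5 times or turned its sign, which it did for 10, so values without it are given beside these. After Benjamini-Hochberg adjustment of edgeR's quasi-likelihood p-values 0 of 53 factors passed 0.05, as did 0 of all genes (0%), and the lowest adjusted p of a factor was 0.340. Limma voom and DESeq2 also called 0 factors, although DESeq2 called 1.83% of all genes. An unadjusted p below 0.05 was met by 3 factors, or 5.66%, against 13.3% of all genes. All 3, EIF1, EIF5A2 and EEF1AKMT4, were lower in race birds, against 7.14% of all genes, and 0 were higher, against 6.19%. By DESeq2 there were 7 lower, or 13.2% against 9.65% of all genes, and 0 higher against 6.71%. Limma voom had 1 lower, or 1.89% against 4.52%, and 0 higher against 7.2%. Without race 5 edgeR gave 1 lower, or 1.89% against 4.41%, and 0 higher against 4.81%. That 1 was EIF4E3, and EIF1, EIF5A2 and EEF1AKMT4 were then above 0.05. In 0 of the 53 factors did the race and control libraries fail to overlap, against 4.33% of all genes, 1.67% with race lower and 2.65% with race higher.

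**Figure D1:**
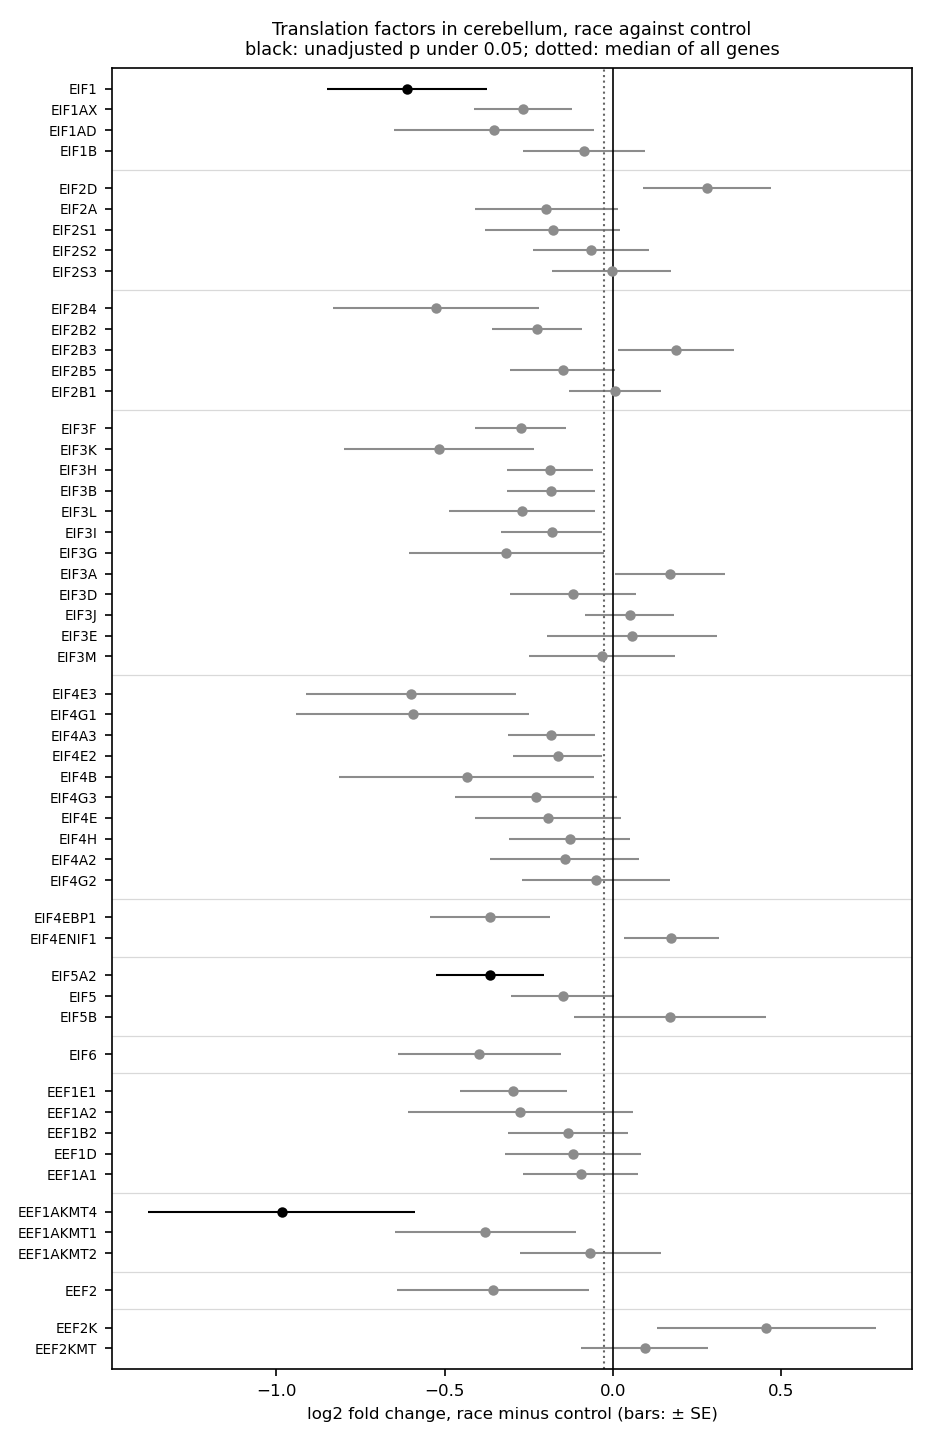
Log2 fold change, race minus control, of 53 translation factors by complex, with bars of 1 SE, black points for an unadjusted p under 0.05 and a dotted line at the median of all genes. Most points lie left of 0, with EEF1AKMT4 at -0.98 and EIF1 at -0.61 farthest left and EEF2K at 0.46 farthest right.

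In the EIF1 group, which holds scanning factors, the log2 fold change was negative in all 4 measured genes, and their median was -0.31. The group follows gene names, and EIF1AD is counted in it by name alone. EIF1, which guards the choice of start codon, had 223, 221, 248, 260.5 and 214 CPM in race birds, against 602, 352, 236, 261 and 332 CPM in control birds. Race values were close together and the controls ran from inside the race range to far above it. The log2 fold change was -0.61 ± 0.24 (SE; edgeR adjusted p = 0.340), and -0.36 without control 1. EIF1AX, the partner of EIF1 in scanning, had 89.8, 66.0, 72.6, 67.1 and 78.5 CPM in race birds, against 74.9, 92.8, 89.9, 103 and 88.9 CPM in control birds. Of the race birds only race 1 reached the level of control 2 to control 5, and the log2 fold change was -0.27 ± 0.14 (edgeR adjusted p = 0.431). EIF1B, a close copy of EIF1, had 68.0 to 84.7 CPM in race birds and 48.9 to 97.9 CPM in control birds, at -0.09 ± 0.18, or -0.23 without control 1. EIF1AD had 3.58 to 4.75 CPM in race birds and 3.81 to 9.34 CPM in control birds, the highest in control 1, and its -0.35 ± 0.30 was -0.075 without it. Reads that align equally to EIF1 and EIF1B would go to neither, so the levels of close copies are uncertain.

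EIF2, the carrier of the initiator transfer RNA, had a median of -0.07 over 5 genes, whose direction depended on the libraries and the scaling. It was -0.15 without control 1, 0.02 without control 5, 0.25 without control 3, control 4 and control 5, and 0.20 by title. Under plain library size scaling it was 0.02, where the median of all genes was 0.07. EIF2S3, its GTP-binding gamma subunit, had 98.6, 92.8, 114, 108 and 99.7 CPM in race birds, against 63.3, 109, 119, 113 and 110.0 CPM in control birds. Control 1 alone lay below the race range, the mean was 103 CPM in each group, and the log2 fold change was -0.15 without control 1. EIF2S1, the alpha subunit that stress kinases phosphorylate, had 80.4, 70.3, 80.1, 79.4 and 76.7 CPM in race birds, against 48.1, 81.8, 103, 99.3 and 106 CPM in control birds. Every race library lay below control 2 to control 5 and above control 1, so the log2 fold change of -0.18 ± 0.20 became -0.35 without control 1. EIF2D, which acts in reinitiation and recycling, had 28.5, 40.9, 29.8, 24.0 and 26.0 CPM in race birds, against 22.6, 24.7, 22.9, 20.6 and 32.1 CPM in control birds. Race 2 was the highest and the others overlapped with the controls, at a log2 fold change of 0.28 ± 0.19. EIF2S2, the beta subunit, stood at -0.07 ± 0.17, or -0.19 without control 1. EIF2A, a separate protein that can also bind initiator transfer RNA, stood at -0.20 ± 0.21 with 69.5 CPM in control 1 and 31.9 to 41.0 CPM in the other controls, and at 0.035 without control 1.

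EIF2B, the exchange factor whose mutation in people causes a disease of white matter, had a median of -0.15 over its 5 subunits. EIF2B4, the delta subunit, had 42.6, 33.0, 33.0, 35.9 and 35.5 CPM in race birds, against 107, 47.7, 34.6, 33.5 and 36.5 CPM in control birds. Its log2 fold change of -0.52 ± 0.31 therefore rested on control 1, without which it was -0.10. EIF2B2, the beta subunit, had 79.5, 76.2, 84.6, 78.5 and 85.5 CPM in race birds, against 109, 92.1, 81.1, 86.0 and 105 CPM in control birds. Of its control libraries only control 3 lay inside the race range, and the log2 fold change was -0.22 ± 0.13 (edgeR adjusted p = 0.454). EIF2B3, the gamma subunit, stood at 0.19 ± 0.17, or 0.063 without control 1, and EIF2B1, the alpha subunit, at 0.01 ± 0.14, or -0.050 without it. EIF2B5, which carries the catalytic part, stood at -0.15 ± 0.16.

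The 12 measured subunits of EIF3, the large scaffold on the small ribosomal subunit, had a median of -0.18 with 9 negative, and -0.12 without control 1. EIF3F had 59.9, 54.2, 62.1, 54.5 and 59.1 CPM in race birds, against 82.1, 72.2, 58.4, 68.8 and 68.5 CPM in control birds. Control 3 alone fell within the race values, and the log2 fold change was -0.27 ± 0.13 (edgeR adjusted p = 0.397). EIF3K had 71.3, 96.1, 91.9, 92.1 and 76.7 CPM in race birds, against 237, 107, 90.2, 74.4 and 104 CPM in control birds, a log2 fold change of -0.52 ± 0.28 that was -0.15 without control 1. EIF3A, the largest subunit, had 231, 249, 235, 222 and 202 CPM in race birds, against 138, 234, 196, 216 and 227 CPM in control birds. Control 1 lay far below the rest, which overlapped, and the log2 fold change was 0.17 ± 0.16, or 0.043 without it. EIF3H had 108 to 134 CPM in race birds and 121 to 145 CPM in control birds, at -0.19 ± 0.13. The smallest differences were those of EIF3M at -0.03 ± 0.22, EIF3J at 0.05 ± 0.13 and EIF3E at 0.06 ± 0.25, which without control 1 were -0.22, -0.018 and -0.15. EIF3G, EIF3L, EIF3I and EIF3D stood at -0.32, -0.27, -0.18 and -0.12, and without control 1 at 0.038, -0.032, -0.089 and 0.054. EIF3B stood at -0.18, and at -0.20 without it. EIF3A, EIF3B, EIF3G and EIF3I form one module of the complex and had a median of -0.18, or -0.03 without control 1. The other 8 subunits had -0.15 with and without it.

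All 10 measured genes of the EIF4 group, which read the cap and unwind RNA, stood below 0, with log2 fold changes of -0.60 to -0.05 and a median of -0.19. By title the median was 0.19 and EIF4E3 stood at 0.97. Without control 3, control 4 and control 5 EIF4A2 stood at 0.30, and without control 1 and control 2 EIF4G1 stood at 0.10. Under plain library size scaling EIF4G2 stood at 0.02, where the median of all genes was 0.07. EIF4E3, a divergent cap-binding protein, had 13.5, 13.5, 9.93, 22.2 and 25.1 CPM in race birds, against 12.7, 21.9, 29.9, 29.3 and 33.6 CPM in control birds. Control 3, control 4 and control 5 lay above every race library and control 1 near the lowest, and the log2 fold change of -0.60 ± 0.31 (edgeR adjusted p = 0.418) was -0.78 without control 1 and -0.04 without control 3, control 4 and control 5. EIF4E, the main cap-binding protein, had 32.1 to 44.8 CPM in race birds and 24.9 to 56.3 CPM in control birds, at -0.19 ± 0.22, or -0.36 without control 1. EIF4E2, which represses by occupying the cap, averaged 33.2 ± 2.61 CPM in race birds and 37.2 ± 2.27 CPM in control birds (SD, n = 5 each), at -0.16 ± 0.13.

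EIF4A2, a helicase abundant in brain, had 1288, 1100.4, 1453, 1403 and 1307 CPM in race birds, against 763, 1365, 1652, 1721 and 1732 CPM in control birds. Control 3 to control 5 lay above the race range and control 1 far below it, giving -0.14 ± 0.22, or -0.32 without control 1. EIF4G1, the scaffold that joins cap and helicase, had 123, 172, 127, 132 and 133 CPM in race birds, against 454, 205, 122, 124 and 133 CPM in control birds. Control 1 was the highest library by far and control 2 the next, and the log2 fold change of -0.60 ± 0.35 was -0.11 without it. EIF4B, which stimulates the helicase, stood at -0.43 ± 0.38 and likewise at -0.05 without control 1. EIF4G2, a scaffold that does not bind EIF4E, had 574 to 784 CPM in race birds and 406 to 975 CPM in control birds, at -0.05 ± 0.22, or -0.22 without control 1. EIF4G3, a copy of EIF4G1, had 55.7 to 95.7 CPM in race birds and 55.0 to 120.5 CPM in control birds, at -0.23 ± 0.24, or -0.093 without control 1. EIF4H, a relative of EIF4B, stood at -0.13 ± 0.18, or -0.26 without control 1, and EIF4A3, whose known place is in the exon junction complex, at -0.18 ± 0.13.

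Of the proteins that restrain EIF4E, EIF4EBP1, which blocks it until mTOR phosphorylates it, had 31.4, 29.4, 33.4, 28.3 and 29.1 CPM in race birds, against 51.7, 41.0, 39.6, 26.6 and 36.5 CPM in control birds. Control 4 lay below every race library and the other controls above them, with a log2 fold change of -0.37 ± 0.18 (edgeR adjusted p = 0.394). EIF4ENIF1, which takes EIF4E to the nucleus and to P-bodies, had 62.8, 62.0, 55.1, 74.8 and 64.8 CPM in race birds, against 53.6, 51.6, 53.5, 56.1 and 68.3 CPM in control birds. Control 5 lay among the race birds and the other controls at or below their lower end, at a log2 fold change of 0.17 ± 0.14.

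EIF5A2, a factor that carries the modified lysine hypusine and relieves stalled ribosomes, had 101, 101, 111, 123 and 104 CPM in race birds, against 111, 165, 113, 167 and 140.0 CPM in control birds. Control 1 and control 3 lay within the race range and the other controls above it. The log2 fold change was -0.36 ± 0.16 (edgeR adjusted p = 0.363), and -0.45 without control 1. Its gene overlaps RPL22L1 in the annotation. EIF5, which triggers GTP hydrolysis by EIF2, had 463, 413, 431, 477 and 447 CPM in race birds, against 440.4, 478, 412, 634 and 509 CPM in control birds. Control 4 was the highest, and the log2 fold change was -0.15 ± 0.15. EIF5B, which joins the subunits, averaged 91.8 ± 8.48 CPM in race birds and 81.5 ± 31.5 CPM in control birds (SD, n = 5 each), where control 1 had 28.5 CPM and the other controls 76.3 to 104 CPM, and its gene overlaps TXNDC9. Its log2 fold change of 0.17 ± 0.29 was -0.061 without control 1. EIF6, which keeps the large subunit free, had 67.9, 73.5, 59.0, 55.8 and 65.0 CPM in race birds, against 148, 83.8, 66.1, 58.2 and 67.2 CPM in control birds. Control 3 to control 5 lay within the race range, and the log2 fold change of -0.40 ± 0.24 was -0.12 without control 1.

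**Figure D2:**
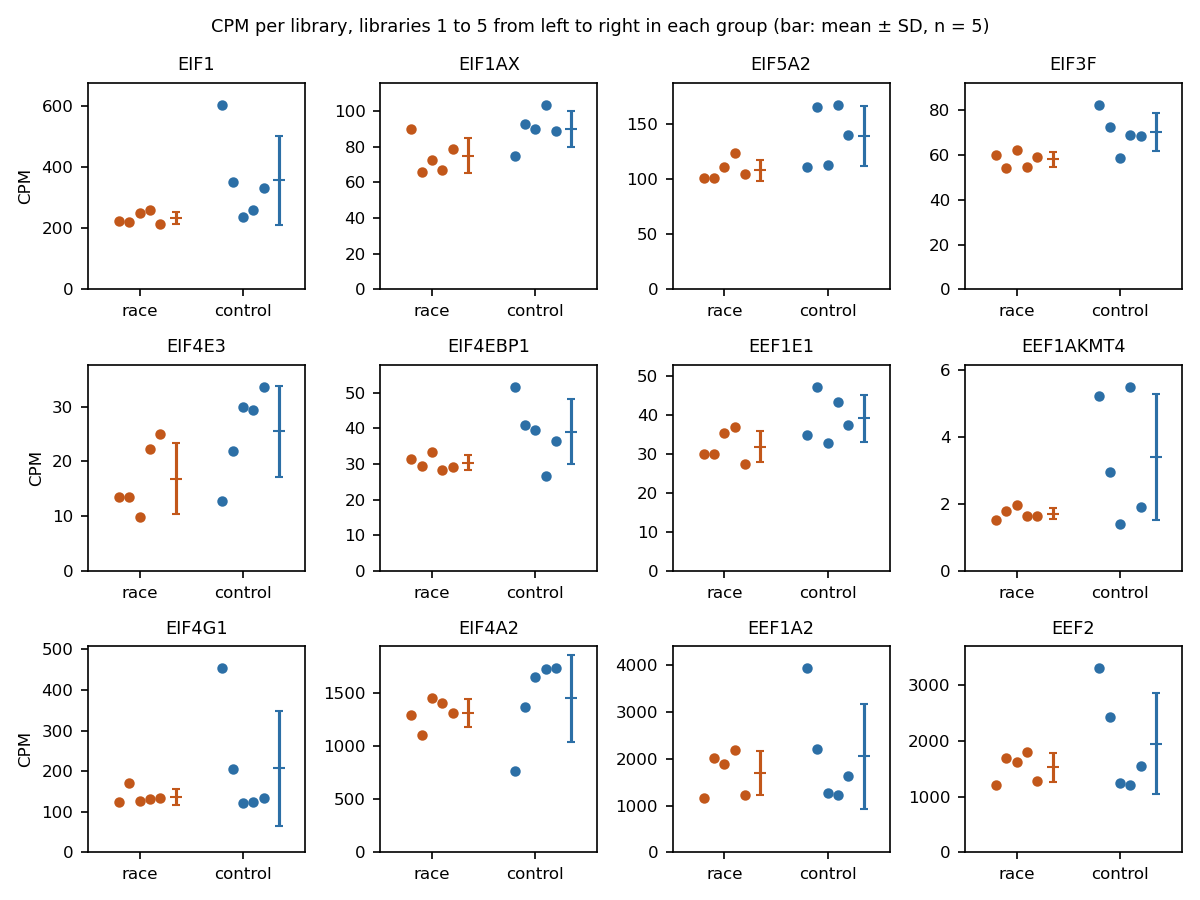
CPM of 12 translation factors per library, race left of control, libraries 1 to 5 in order within a group, with the mean and SD beside them. Race and control libraries overlap in every panel, and control 1 is the highest for EIF1, EIF4G1, EEF1A2 and EEF2 and the lowest for EIF4A2.

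All 6 genes grouped by name as EEF1 and EEF2 had values below 0, with a median of -0.20. They include EEF1E1, which is not itself an elongation factor. EEF1D stood at 0.01 under plain library size scaling, where the median of all genes was 0.07, and EEF1A2 at 0.08 without control 1. EEF1A2, which delivers charged transfer RNA and is the neuron and muscle form in mammals, had 1168, 2009, 1892, 2192 and 1238 CPM in race birds, against 3940.2, 2219, 1272, 1217 and 1632 CPM in control birds. Its log2 fold change of -0.27 ± 0.33 was 0.08 without control 1. EEF2, which moves the ribosome along the message, had 1214, 1697, 1622, 1795 and 1284 CPM in race birds, against 3303, 2432, 1243, 1215 and 1553 CPM in control birds. Its log2 fold change was -0.36 ± 0.29 (edgeR adjusted p = 0.561), and -0.10 without control 1.

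Both genes divide the libraries in the same way. Race 1, race 5, control 3, control 4 and control 5 were the 5 lowest libraries for EEF1A2, EEF2, EEF1D, EIF4B and EIF3G, a split that crosses the groups. With tables assigned by title, race 5, control 3, control 4 and control 5 would be race libraries together with race 4, and race 1 a control library. The split was seen in 5 of 53 factors, or 9.43%, and in 3.43% of all genes, and it was noticed after the values were seen. EEF1A1, the widely expressed form, did not follow it, with 1299.5, 1217, 1566, 1269 and 1203 CPM in race birds, against 1009, 1444, 1643, 1409 and 1497 CPM in control birds, at -0.10 ± 0.17, or -0.21 without control 1. The log2 ratio of EEF1A1 to EEF1A2 ran from -0.79 to 0.15 in race birds and from -1.97 to 0.37 in control birds.

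EEF1B2 and EEF1D, subunits of the exchange factor of EEF1A, stood at -0.13 ± 0.18 and -0.12 ± 0.20, and at -0.23 and 0.00016 without control 1. EEF1E1, which despite its name is a scaffold of the complex of aminoacyl-tRNA synthetases, had 29.9, 29.9, 35.3, 36.8 and 27.3 CPM in race birds, against 34.9, 47.2, 32.7, 43.2 and 37.3 CPM in control birds, a log2 fold change of -0.30 ± 0.16 (edgeR adjusted p = 0.431). EEF2KMT, a methyltransferase of EEF2, stood at 0.10 ± 0.19, or -0.036 without control 1. EEF2K, the calcium-dependent kinase that switches EEF2 off, had the most positive log2 fold change of the 53, at 0.46 ± 0.33. It had 58.6, 68.5, 136, 154 and 89.5 CPM in race birds, against 35.5, 75.4, 88.2, 106 and 63.8 CPM in control birds. Race 3 and race 4 lay above every control and the other race birds within the control range, and the fold change was 0.27 without control 1.

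The 3 lysine methyltransferases of EEF1A that were grouped by the name EEF1AKMT had a median of -0.38. Any of another name is not in this group. EEF1AKMT4, a rare transcript, had 1.52, 1.79, 1.96, 1.65 and 1.65 CPM in race birds, against 5.24, 2.95, 1.39, 5.50 and 1.92 CPM in control birds. Control 3 and control 5 had the low level of the race birds, and the log2 fold change was -0.98 ± 0.40 (edgeR adjusted p = 0.347). Its span overlaps CAMK2N2 in the annotation. EEF1AKMT1 had 19.2, 18.1, 16.7, 16.1 and 19.1 CPM in race birds, against 9.39, 25.9, 29.1, 22.1 and 29.5 CPM in control birds. The race values lay between control 1 and the other controls, and the log2 fold change of -0.38 ± 0.27 was -0.60 without control 1. EEF1AKMT2 had 30.7, 28.5, 22.4, 26.1 and 32.7 CPM in race birds, against 23.4, 33.7, 35.8, 35.5 and 18.7 CPM in control birds. The controls lay on both sides of the race birds, at -0.07 ± 0.21, or -0.15 without control 1.

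The level of each complex, the mean log2 CPM of its members minus the control mean, summarises these values by bird. For all 53 factors it ran from -0.18 to -0.07 in race birds and from -0.07 to 0.08 in control birds, meeting at race 4 and control 3. For EIF1 it ran from -0.39 to -0.23 in race birds and from -0.22 to 0.20 in control birds, without overlap. The methyltransferases did not overlap either, at -0.45 to -0.26 in race birds and -0.25 to 0.41 in control birds. Both gaps were narrow. For EIF1 race 1 stood at -0.229 and control 3 at -0.219, and for the methyltransferases race 5 stood at -0.261 and control 5 at -0.251. How often other sets of 3 or 4 genes separate in these libraries was not counted. EIF4 ran from -0.32 to -0.07 in race birds and from -0.09 to 0.12 in control birds, and EIF3 from -0.20 to -0.02 in race birds and from -0.15 to 0.12 in control birds. For EIF2 the race birds lay between -0.02 and 0.03, inside the control range of -0.26 to 0.20, and EEF1 ran from -0.40 to 0.11 in race birds and from -0.23 to 0.19 in control birds. Over all genes tested the level lay between -0.01 and 0.05 in race birds and between -0.08 and 0.10 in control birds. The differences between complexes were not tested.

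**Figure D3:**
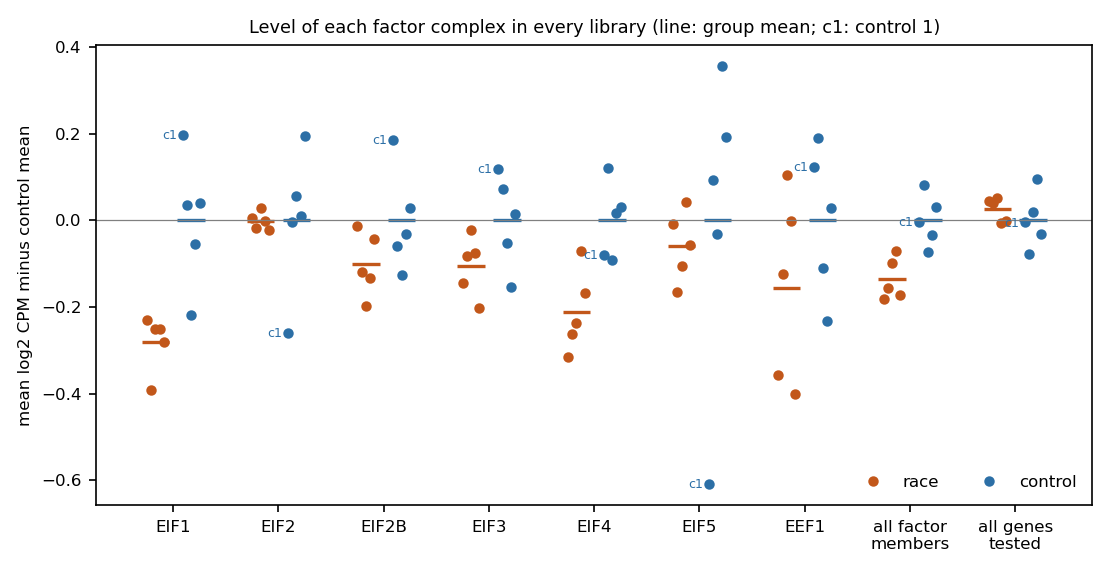
Level of each factor complex per library (mean log2 CPM of its members minus the control mean), race left of control, with lines at group means and c1 marking control 1. Of the complexes drawn EIF1 alone has no overlap (the methyltransferases are not drawn), EIF2 race birds lie between -0.02 and 0.03, and control 1 is at -0.61 for EIF5 and -0.26 for EIF2.

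Much of the spread among control birds came from control 1, in opposite directions within single complexes. It was the highest library for 19 of the 53 factors and the lowest for 20, or 35.8% and 37.7%, against 31.4% and 32.4% of all genes. Within EIF3 it was the highest library for EIF3D, EIF3F, EIF3G, EIF3I, EIF3K and EIF3L and the lowest for EIF3A, EIF3E, EIF3J and EIF3M. Within EIF4 it was the highest for EIF4B, EIF4G1 and EIF4G3 and the lowest for EIF4A2, EIF4E, EIF4G2 and EIF4H, and it was the lowest for all 3 subunits EIF2S1, EIF2S2 and EIF2S3. Relative to the median of the other 9 libraries it stood at a log2 of 1.78 for EIF4G1 and 1.70 for EIF4B, and at -1.73 for EIF5B and -1.21 for EIF3E. The log2 ratio of EIF4G1 to EIF4G2 was 0.16 in control 1, against -2.67 to -1.74 in race birds and -2.97 to -2.04 in the other controls.

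**Figure D4:**
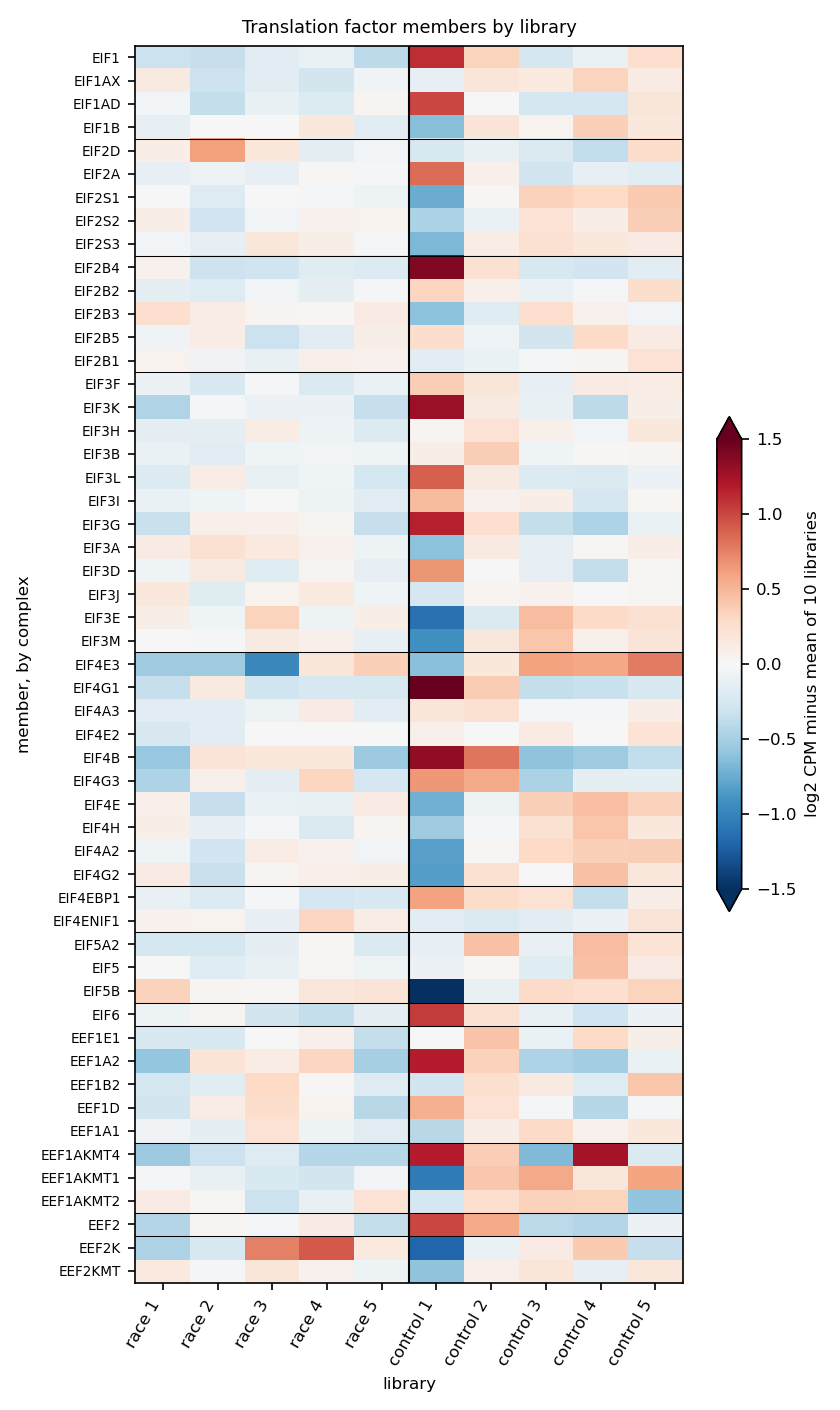
Log2 CPM of each factor minus its mean over the 10 libraries, race columns left of control columns, members in rows by complex and colour capped at 1.5 either way. Control 1 has the deepest reds and blues, such as EIF4G1 and EIF5B, often within the same complex.

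Without control 1 more factors had an unadjusted p below 0.05, while the median moved little. It was -0.15 with 43 of 53 negative, 0 passed after adjustment by edgeR (0% of all genes), and 12 had an unadjusted p below 0.05 with race lower, or 22.6% against 8.21% of all genes. These were EIF1, EIF1AX, EIF1B, EIF2S1, EIF3F, EIF4A2, EIF4E, EIF4E3, EIF4H, EIF5A2, EEF1E1 and EEF1AKMT1, with 0 higher against 6.99%. The controls of that fit were control 2 and the W-expressing control 3, control 4 and control 5. EIF2S1, at 70.3 to 80.4 CPM in race birds and 81.8 to 106 CPM in control 2 to control 5, and EEF1AKMT1, at 16.1 to 19.2 CPM in race birds and 22.1 to 29.5 CPM in those controls, then no longer overlapped, which is 2 of 53 against 2.65% of all genes, and 0 did so with race higher against 3.83%. Without control 3, control 4 and control 5, the libraries that express W-linked genes, 11 of 53 passed after adjustment, or 20.8%, against 23.2% of all genes, and control 1 and control 2 were then the only controls. At an unadjusted p below 0.05 that fit had 15 of 53 lower, or 28.3% against 21.2%, and 3 of 53 higher against 19.5%. Of the 12 factors named above, EIF1B, EIF2S1, EIF4A2, EIF4E, EIF4H and EEF1AKMT1 stood there at 0.15, 0.25, 0.30, 0.30, 0.22 and 0.017. The rest of the 12 stayed negative, from -1.03 for EIF1 to -0.04 for EIF4E3. With control 3, control 4 and control 5 as the only controls the fit had 10 lower, or 18.9% against 10.3%, and 0 higher against 8.18%. In it 0 passed after adjustment against 0.727%.

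**Figure D5:**
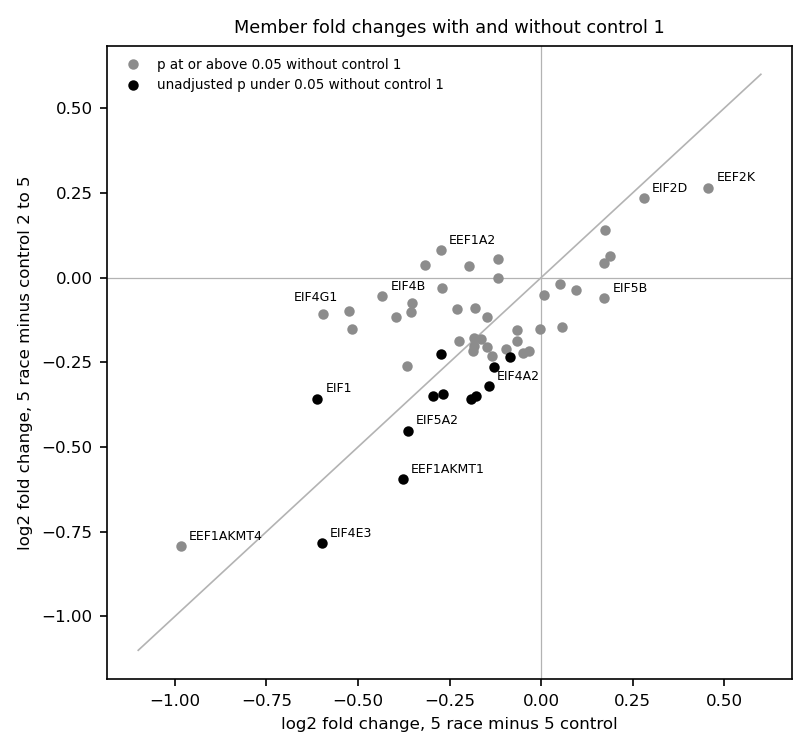
Log2 fold change of each factor over all 10 libraries (horizontal) and without control 1 (vertical), with a line of equality and black points for an unadjusted p under 0.05 without it. EIF4G1 and EIF4B move towards 0, at -0.11 and -0.05, while EIF4E3 moves to -0.78 and EEF1AKMT1 to -0.60.

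Gene span was set beside the fold changes, and its part in them was not tested. The 27 factors with a gene span of at most 10856 bp, their median, had a median log2 fold change of -0.22, and all 4898 genes of that span had -0.22. The 26 longer factors had -0.14 and all 9274 longer genes 0.05. With offsets that take out the trend on span, the median was -0.14 over the factors and -0.05 over all genes. At an unadjusted p below 0.05, 4 factors were then lower, or 7.55% against 7.56% of all genes, and 0 higher. In either direction the shares were 7.55% and 13.4%. In a fit added after the data were seen, without control 1 as well, 11 were lower, or 20.8% against 8.52% of all genes, and 0 higher against 6.37%. The level of those short genes ran from -0.20 to -0.04 in race birds and from -0.13 to -0.06 in control 2 to control 5, with control 1 alone above, at 0.41. With the tables assigned by sample title 0 factors passed after adjustment against 0.0212% of all genes. At an unadjusted p below 0.05, 3 of 53 were then lower, or 5.66% against 7.76%, and 2 of 53 higher against 4.17%.

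Genes that act on the factors were set beside them, and their counts at an unadjusted p below 0.05 are read against 7.14% lower and 6.19% higher over all genes. The list of kinases and phosphatase subunits of EIF2 had a median of 0.17 over 10 tested genes, or 0.05 without control 1. By edgeR 0 of 10 passed after adjustment, and 0 were lower and 1 higher before it. DNAJC3 and IMPACT, which are listed but are neither, stood at 0.10 and 0.23 and were the middle values behind that median. The kinases EIF2AK3 and EIF2AK4 stood at 0.33 and 0.40. For EIF2AK4 only control 1 and control 2, at 25.0 and 44.6 CPM, lay below the race range of 75.1 to 94.4 CPM. Control 3 to control 5 lay within it. PPP1R15B and PPP1CA stood at -0.24 and -0.49, and PPP1CB and PPP1CC at 0.08 and 0.09. Control 1 held 222 CPM of PPP1CA. Its level was 70.0 to 99.0 CPM in control 2 to control 5, overlapping the 68.2 to 93.4 CPM of race birds. EIF2AK1, the haem-regulated kinase, averaged 36.8 ± 3.51 CPM in race birds and 26.0 ± 7.98 CPM in control birds. Its log2 fold change of 0.50 ± 0.22 (edgeR adjusted p = 0.363) was 0.33 without control 1. EIF2AK2, activated by double-stranded RNA, stood at 0.68 ± 0.33, or 0.51 without control 1 and 0.50 without control 2. Only control 1 and control 2, at 6.10 and 5.39 CPM, lay below its race range of 12.9 to 21.3 CPM. Control 3 to control 5, at 13.3 to 17.1 CPM, lay within that range. The 16 tested targets of ATF4, the transcription factor made when EIF2 is phosphorylated, had a median of -0.18, or -0.06 without control 1, with 2 lower and 1 higher before adjustment and 0 after it. VLDLR, a reelin receptor on Z, stood at 1.09 ± 0.18 and DDIT4, an inhibitor of mTOR, at -1.06 ± 0.43. Control 1 held 87.7 CPM of DDIT4 and control 2 to control 5 held 19.4 to 40.0 CPM, and its fold change was -0.54 without control 1.

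The mTOR complex 1 list had a median of -0.03 over 20 genes, which turned to 0.05 without control 1 and 0.0037 without race 5, with 3 lower and 2 higher before adjustment, against 7.14% and 6.19% of all genes, and 0 after it. LAMTOR2, part of the lysosomal anchor of mTOR, averaged 46.5 ± 3.64 CPM in race birds and 65.0 ± 9.54 CPM in control birds, a log2 fold change of -0.48 ± 0.14 (edgeR adjusted p = 0.296), and its partner LAMTOR5 stood at -0.49 ± 0.16. RHEB was the third lower gene, at -0.40 ± 0.17. The 2 higher genes were PDCD4 at 0.46 ± 0.19 and TSC1 at 0.43 ± 0.18. In poly(A) binding, scanning, release and recycling the median was -0.04 over 22 genes, -0.083 without control 1 and 0.024 without control 4, with 4 lower and 2 higher before adjustment, against the same shares, and 0 after it. DHX29, a helicase of scanning, and PELO, which rescues stalled ribosomes, stood at 0.96 ± 0.28 and 0.56 ± 0.18. Both lie on Z, as VLDLR does. The other listed genes on Z, PSAT1, RPS6 and PAIP1, stood at -0.19, 0.23 and 0.19. VLDLR had 31.8 and 40.7 CPM in control 1 and control 2, against 37.2 to 57.3 CPM in the W-expressing control 3 to control 5. DHX29 had 23.2 and 40.9 CPM against 40.7 to 80.4 CPM, and PELO 21.9 and 36.9 CPM against 22.4 to 36.2 CPM. The part of sex in the values of these genes was not tested.

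In whole tissue, fewer cells of a type and less RNA per cell cannot be told apart. All 7 tested oligodendrocyte markers were negative, with a median of -0.83 and a summed level of 1799 to 4057 CPM in race birds and 2536 to 5728 CPM in control birds. With the tables assigned by sample title their median was -0.02, with 4 of 7 negative. Astrocyte and Bergmann glia markers summed to 1377 to 1970.1 CPM in race birds and 1836 to 3562 CPM in control birds, with 5 of 7 negative. Their median of -0.06 was 0.13 by title and -0.24 without control 1. Granule cell markers summed to 2304 to 2837 CPM in race birds and 1521 to 3461 CPM in control birds. Purkinje cell markers summed to 1376 to 1767 CPM in race birds and 1278 to 1835 CPM in control birds, with PCP2 too low to be tested. Forebrain markers summed to 22.9 to 42.1 CPM in race birds and 24.8 to 40.8 CPM in control birds other than control 4, which had 276 CPM, and their median of -2.59 was 0.13 without control 4. Microglia, endothelial and red blood cell markers reached at most 50.4, 227 and 16.0 CPM in race birds, against 55.4, 168 and 40.8 CPM in control birds. Choroid plexus markers reached at most 1.92 CPM in race birds and 2.42 CPM in control birds. These sums cover tested markers only. Untested or absent were 7 of 9 red blood cell markers, with every listed globin, 3 of 4 of choroid plexus and 3 of 7 of microglia. Low sums therefore do not show that these cells were few. Of the endothelial markers 5 of 6 were positive. Their median of 0.45 was 0.30 without control 1 and -0.19 by title. The part of these markers in the values of the factors was not tested.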

How the data were processed

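The authors deposited 1 table of whole read counts for each library, not normalized. The submitters' processing notes name STAR 2.7.10a and HTSeq 0.13.5, beside fastp 0.23.2, FastQC 0.11.5 and MultiQC 1.14. No source used here gives the build, the annotation or the strand setting. Rows naming no gene held 18.1% to 23.4% of counts and stayed out, and reads aligned to several places, 2.37% to 3.90%, went to no gene. Of the 54 members 19 overlap another gene's span in the RefSeq table (assembly bColLiv1.pat.W.v2), so their counts are uncertain, as are those of close paralogues.

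The filter of filterByExpr (minimum count 10) kept 14172 genes, which were scaled by TMM and compared by edgeR's two-sided quasi-likelihood test, with p-values adjusted by Benjamini-Hochberg over all of them and a threshold of 0.05 (edgeR 4.0.16, limma 3.58.1, DESeq2 1.42.0, R 4.3.3). The lowest count of a tested member in a library was 28. SEs come from the fold change and F statistic. Levels use log2 CPM with a prior count of 2. Libraries were taken as separate birds, as labelled, and 0 of 45 pairs agreed within sampling noise (lowest chi-square per gene 27.3). Members and lists were chosen with earlier results of these data known. Genes given in every library were any past the threshold, the 10 of smallest p and, per complex, those of smallest p and highest CPM. EIF2S1, EEF1A1 and EEF1AKMT1, given in the same way, were chosen after their values were seen. In each pathway list the 2 of smallest p are named. The alternatives tried were plain library size and RLE scaling, no low-count filter, limma voom, DESeq2, each library left out, control subsets, groups by title and gene span offsets. The fit was tested on simulated data.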

Additional observations from a re-analysis of the deposited data

Results flagged for a closer look

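In groups of 5 libraries, a library was singled out where its gap to the nearest other exceeded 0.71 of the group's range. This held in 10 of 78 groups examined, and 7 of the 10 were control 1. Separate groups would give about 1 in 20 by chance, but these share libraries and genes, so the count cannot be judged by that rate. Among race birds, race 2 had 172 CPM of EIF4G1 against 123 to 133 CPM in the others, and a log2 ratio of EIF4G1 to EIF4G2 of -1.74 against -2.67 to -2.52. Among control birds, control 1 had 237 CPM of EIF3K against 74.4 to 107 CPM, 454 CPM of EIF4G1 against 122 to 205 CPM, 107 CPM of EIF2B4 against 33.5 to 47.7 CPM, and 148 CPM of EIF6 against 58.2 to 83.8 CPM. It also had 63.3 CPM of EIF2S3 against 109 to 119 CPM, a level of the EEF2 regulators of -0.76 against 0.05 to 0.30, and a log2 ratio of EIF1 to EIF1B of 3.62 against 1.41 to 2.02. Control 5 had 68.3 CPM of EIF4ENIF1 against 51.6 to 56.1 CPM in the other controls.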

How the results depend on the processing

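Under every alternative but assignment of tables by title, the median over the factors stayed negative, from -0.21 to -0.073. No paired analysis was possible because the labels number no birds within a group: the numbers 1 to 5 used here follow record order and tie no race bird to a control bird. The causes of the shifts below were not tested.

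Plain library size scaling gave medians of -0.073 over all factors, -0.19 for EIF1, -0.036 for EIF2B, -0.069 for EIF3 and -0.087 for EIF4, and log2 fold changes of 0.075 for EIF2S3 and 0.024 for EEF1AKMT2. Limma voom left 1 factor lower at an unadjusted p below 0.05 and put EIF2S3 at 0.028, and DESeq2 gave 7 lower. Leaving out 1 library at a time gave 1 to 12 lower, medians of -0.60 to -0.28 for the EEF1A methyltransferases, and log2 fold changes of -0.15 to 0.054 for EIF2S3, -0.19 to 0.014 for EEF1AKMT2 and -0.41 to 0.082 for EEF1A2. Each 1-library omission had -0.21 (without control 4) to -0.15 (without control 1) as the median of all factors.

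With tables assigned by title 2 factors were higher, and the medians were 0.027 over all factors, -0.084 for EIF1, 0.20 for EIF2, 0.027 for EIF2B, -0.077 for EIF3, 0.19 for EIF4, 0.16 for EIF5 and 0.10 for the methyltransferases. Log2 fold changes were then 0.13 for EIF5A2, 0.97 for EIF4E3, 0.0011 for EEF1E1, 0.11 for EIF1AX, -0.22 for EIF2D, 0.20 for EIF2S3, -0.034 for EIF3A, 0.39 for EIF4A2, 0.16 for EIF5 and 0.10 for EEF1AKMT2.

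Without control 3, control 4 and control 5 there were 11 factors past the adjusted threshold, 15 lower and 3 higher, with medians of -0.45 for EIF1, 0.25 for EIF2, -0.34 for EIF3, -0.077 for EIF4, -0.37 for EEF1 and -0.023 for the methyltransferases, and 0.25 for EIF2S3 and 0.30 for EIF4A2. Without control 1 and control 2 there were 10 lower, medians of -0.077 for EIF3 and -0.61 for the methyltransferases, and 0.10 for EIF4G1, 0.026 for EIF2B4, 0.17 for EEF2 and 0.29 for EEF1A2. Gene span offsets gave 4 lower, or 7.55% against 7.56% of all genes, and a median of -0.080 for EIF3. Added after the data were seen, the same offsets without control 1 gave 11 lower, medians of -0.20 for EIF2, -0.076 for EIF3 and -0.65 for the methyltransferases, and 0.012 for EEF1A2 and -0.017 for EIF3A.

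With 5 birds a group, the biological coefficient of variation was 0.377 for the fit as a whole, not for single factors. A tested factor had at least 28 reads in each library. The spread between birds and counting error were not told apart for each factor.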
